A study of Mus musculus with 16 samples.

Results

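Transcripts of the lysosome and of its proton pump, 42 of the 12617 genes tested, were followed in mouse livers. They are every row whose symbol starts with Atp6v, 17 subunits of the pump, together with 25 listed lysosomal genes: hydrolases, their cofactors, membrane proteins and the regulators Tfeb and Tfe3. Of 23 protein-coding mouse genes named Atp6v, the other 6 (Atp6v0a4, Atp6v1b1, Atp6v1c2, Atp6v1e2, Atp6v1fnb and Atp6v1g3) were not analysed here. The livers came from mice given a Western diet, rich in fat and cholesterol, for 8 weeks, and fall into a control CRISPR group and a Cyp7a1 CRISPR group with 8 libraries each. CRISPR edits genes at chosen sites, here by label at Cyp7a1, whose product limits the rate of bile acid synthesis from cholesterol. The series asks how bile acids act on lipid metabolism. The sources used here give no strain, sex, age, guide sequence or route by which the editing reached the liver. They also leave unsaid whether every library is its own mouse, so the p-values measure spread between libraries, which may be technical. Below, a liver means a library.

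Lysosomes are acidic compartments in which hydrolases digest proteins, glycans, lipids and glycogen brought in by endocytosis and autophagy. Acid is supplied by the V-ATPase, a rotary pump in which the cytosolic V1 sector splits ATP and the membrane-embedded V0 sector carries protons inward. Many of its genes, and many hydrolase genes, are known targets of TFEB and TFE3, transcription factors that bind an E-box, CACGTG, in a longer form called the CLEAR element. In liver, lysosomes of hepatocytes and of Kupffer cells, the resident macrophages, both contribute to the RNA measured.

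The promoters are shown first because this E-box is the sequence feature that the lysosomal genes are known for. RefSeq promoter windows (GRCm38.p6, 250 bases before to 50 after a start site) were found for 33 of the 42 genes, 41 windows in all. CACGTG, which reads the same on both strands, occurred in windows of 13 of these 33 genes, 39.4%, against 8.09% of all 27025 genes with a window and 11.9% of the 9272 tested genes with one. The longer TCACGTGA, also the same on both strands and always holding a CACGTG, occurred in 7 of the 33, 21.2%, against 1.12% and 2.19%. A match is a description of the letters, not evidence of binding. The lines below give the sites of the 3 genes past the test that hold the motif (Ctsa, Ctsl and Glb1) and of 4 abundant or repeat-rich genes that were not past it, 5′ to 3′ on the gene's strand with CACGTG in capitals.
Ctsa, first site (chr2:164833749-164833778, plus strand): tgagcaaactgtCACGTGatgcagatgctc
Ctsa, second site (chr2:164833766-164833795, plus strand): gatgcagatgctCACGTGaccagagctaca
Ctsl (chr13:64370739-64370768, minus strand): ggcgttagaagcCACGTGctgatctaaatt
Glb1 (chr9:114401018-114401047, plus strand): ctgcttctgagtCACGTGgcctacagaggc
Lamp1 (chr8:13159081-13159160, plus strand): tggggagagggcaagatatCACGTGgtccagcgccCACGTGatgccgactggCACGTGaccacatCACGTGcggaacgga
Ctsd, distal site (chr7:142388048-142388077, minus strand): tccccCACGTGacctgtatccagtcattct
Ctsd, proximal site (chr7:142387908-142387937, minus strand): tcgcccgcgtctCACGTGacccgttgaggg
Mcoln1, first site (chr8:3500436-3500465, plus strand): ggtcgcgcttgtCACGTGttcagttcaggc
Mcoln1, second site (chr8:3500462-3500491, plus strand): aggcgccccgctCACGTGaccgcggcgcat
Gla, first site (chrX:134601215-134601244, minus strand): taagcgattgatCACGTGagcatctacgtc
Gla, second site (chrX:134601182-134601211, minus strand): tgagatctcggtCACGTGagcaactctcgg
The Lamp1 stretch ends just before the start site and holds 4 copies, the most of any of the 33 genes, and 6 genes held at least 2 copies. In Ctsa the copies lie 12 bases before the start site and at base 6 of the transcript, both in the TCACGTGA form. The single Glb1 copy begins 48 bases before the start and the single Ctsl copy 236 bases before it, neither in the longer form. Among pump subunits the motif was in the windows of Atp6v0b, Atp6v0d1, Atp6v0e and Atp6v1a. Of the 4 genes past the test that had a window 3 held the motif: Ctsa and Ctsl, which rose, and Glb1, which fell. Of the 29 not past it 10 did. Atp6v0d2 and Asah1, also past the test, had no window, and a relation of the motif to the calls was not tested. Atp6v1e1 had a window without these letters.

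Libraries held 13.77 to 27.36 M recovered reads (M, mega), on average 21.02 ± 3.48 for control livers and 23.43 ± 2.41 for Cyp7a1-labelled ones (SD, 8 livers a group), and 18.1% to 21.3% of a library fell on its top 10 genes. Libraries labelled Cyp7a1 did not hold less of the Cyp7a1 transcript: controls ran from 2148 through a median of 3281 to 5642 normalized counts, and the labelled livers from 3069 through 4892 to 5873. Its log2 difference was 0.43 (95% interval 0.01 to 0.84), with a limma unadjusted p of 0.0436 and an adjusted p of 0.227, not past the adjusted threshold. An exact permutation test over 12870 assignments gave a two-sided p of 0.0716. A transcript level does not show whether the edited gene still makes protein, so the group is called Cyp7a1-labelled here. Of 11 tested hepatocyte markers 1 was past the threshold (Tat, a tyrosine-degrading enzyme, log2 difference 0.84, limma adjusted p 0.0466), and the next smallest p was that of Ass1, a urea cycle enzyme (adjusted p 0.246). None was at 0 in any library.

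Most lysosomal transcripts were not past the threshold between the groups. In the limma fit over all genes, 5 of the 42 were higher in Cyp7a1-labelled livers (Atp6v0d2, Ctsl, Asah1, Ctsa and Atp6v1e1), 1 was lower (Glb1) and 36 were not past the adjusted p threshold of 0.05. Those past it are 14.3% of the 42, against 6.12% of all genes tested (3.07% higher and 3.05% lower). The median log2 difference was 0.05, against 0.0034 over all genes, and 27 of the 42 had a positive value (64.3%, against 50.9%). At an unadjusted p under 0.05 there were 15, of which 12 were positive and 3 negative. Of all genes tested, 20.5% were at an unadjusted p under 0.05, 10.1% higher and 10.4% lower. Groups did not overlap for 1 gene, Ctsl, and this was so for 1.04% of all genes. With libraries scaled to equal totals the counts were 3 higher and 0 lower, and without Control 20 and Cyp7a1 24 they were 3 and 1. These counts were not tested as a set, and the genes were chosen with earlier results of these data known.

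**Figure D1:**
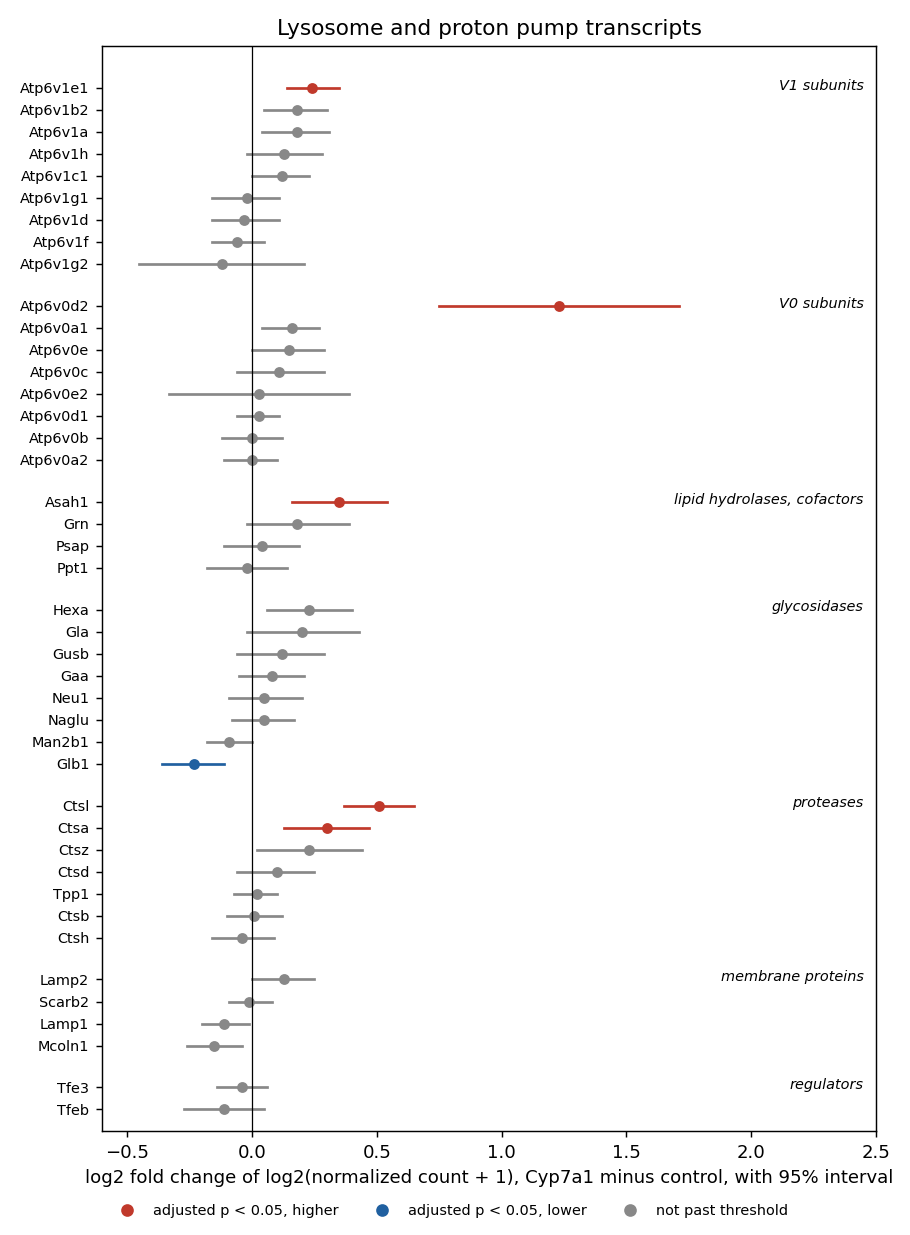
Log2 fold change of each of the 42 transcripts (x axis, Cyp7a1-labelled minus control, log2 of normalized count + 1) by role, with points for the limma estimate and lines for its 95% interval. Atp6v0d2 at 1.23 and Ctsl at 0.51 stand farthest to the right, and Glb1 at -0.23 is the only blue point.

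The plot of fold changes by role shows how narrow the range is: apart from Atp6v0d2, all estimates lie between -0.23 and 0.51. A difference of 0.51 on this scale is a 1.43-fold change, and Atp6v0d2 with its 2.35-fold change has by far the widest interval among the genes past the threshold.

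The V0 sector held the largest single difference. Atp6v0d2 encodes the d2 form of the subunit that joins the proton-carrying ring to the central stalk, a form known from osteoclasts and macrophages, whereas d1 is made in most cells. Of 8 V0 subunits measured, 1 was higher (12.5%, against 6.12% of all genes past the threshold), none was lower and 7 were not past it. Their median log2 difference was 0.07. Atp6v0d2 (ENSMUSG00000028238, chromosome 4, 19876841 to 19922605 on mm10, minus strand) had 36.1, 63.73 and 130.5 normalized counts as the lowest, median and highest control, and 87.5, 151.5 and 221.2 in Cyp7a1-labelled livers. The groups overlapped through 2 livers: Control 38 held 130.5, and Cyp7a1 24 held 87.5, while the other 7 Cyp7a1-labelled livers lay above every control. The log2 difference was 1.23 ± 0.23 (SE), 2.35-fold, with a limma adjusted p of 0.00448.

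Set against its partner, the d2 form remained a minor transcript. Atp6v0d1 ranged from 1785 through 1846 to 2083 in controls and from 1840 through 1916 to 2075 in the Cyp7a1 group, a log2 difference of 0.03 (95% interval -0.06 to 0.11). Per kilobase of exon, d2 made up 2.36% ± 1.03 of the d1 and d2 total in controls (SD, n = 8; 1.21% to 4.48%) and 5.06% ± 1.21 in Cyp7a1-labelled livers (3.03% to 6.74%). Since d2 is known from macrophages among other cells, the macrophage markers are given with it. Which cells made the d2 transcript here was not tested. In limma 0 of 12 Kupffer cell markers and 0 of 11 recruited macrophage markers were past the threshold. At an unadjusted p under 0.05 there were 1 and 0 (against 20.5% of all genes). The Kupffer markers with the smallest p were Cd163, a haemoglobin scavenger receptor (log2 difference 0.66, limma adjusted p 0.051), and Folr2, a folate receptor (-0.24, 0.254). The recruited macrophage markers with the smallest p were Mpeg1, a pore-forming protein (0.16, 0.344), and Lyz2, a lysozyme (-0.26, 0.454).

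Summed Kupffer markers ranged from 9234 to 15795 normalized counts in controls and from 8215 to 28227 in Cyp7a1-labelled livers, and summed recruited macrophage markers from 6501 to 12249 and from 7016 to 13109. No marker in the table was at 0 in any library. In bulk tissue, more cells of a type and more RNA per cell cannot be told apart. Cyp7a1 24, the liver with the highest macrophage marker score (0.874 on a log2 scale centred over all livers), had the lowest Atp6v0d2 of its group, and Control 13, the highest control (0.648), had 38.55, the second lowest control. Over all 16 livers, centred within groups, Pearson r was -0.41 and Spearman rho -0.21 (unadjusted permutation p 0.128 and 0.454). Without these livers r was 0.16.

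The other V0 subunits were not past the threshold. Atp6v0a1, the a1 form of the subunit that lines the proton path, ranged from 1507 through 1670 to 1843 in controls and from 1635 through 1924 to 2050 in the Cyp7a1 group. Its log2 difference was 0.16 ± 0.05 (SE) with a limma adjusted p of 0.0959, and 5 of 8 Cyp7a1-labelled livers were above every control. Without Cyp7a1 36 its adjusted p was 0.0452. Atp6v0e had a log2 difference of 0.15, Atp6v0c of 0.11, and Atp6v0a2, Atp6v0b, Atp6v0d1 and Atp6v0e2 of at most 0.03 in size. The ring subunit gene Atp6v0c had only 103.9 ± 11.9 normalized counts in controls (SD, n = 8), and 2 annotated pseudogenes carry its name, so its level is uncertain.

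In the V1 sector Atp6v1e1 rose, and the 2 genes of the ATP-splitting head had positive differences that were not past the threshold. Of 9 V1 subunits 1 was higher (11.1%, against 6.12% of all genes past the threshold), 0 were lower, and the median log2 difference was 0.12. Atp6v1e1 (ENSMUSG00000019210, chromosome 6, 120794305 to 120822793, minus strand), the common form of the E subunit in the outer stalks, ran from 1589 through 1815 to 1980 normalized counts in controls and from 1925 through 2170 to 2238 in Cyp7a1-labelled livers. Every Cyp7a1-labelled liver except Cyp7a1 5, at 1925, was above the highest control. The log2 difference was 0.24 ± 0.05 (SE), 1.18-fold, with a limma adjusted p of 0.00881.

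Atp6v1b2, the B subunit of the head made in most tissues, ranged from 961.2 through 1076 to 1173 in controls and from 1088 through 1200 to 1418 in the Cyp7a1 group. With 6 of 8 Cyp7a1-labelled livers above every control, its log2 difference was 0.18 ± 0.06 (SE) and its limma adjusted p 0.0868. Under array weights it was 0.0427. Atp6v1a, the catalytic A subunit, had the same log2 difference of 0.18 with a limma adjusted p of 0.121. Atp6v1c1 and Atp6v1h, a link and a regulator of the V1 sector, had 0.12 and 0.13. Atp6v1f, Atp6v1d, Atp6v1g1 and Atp6v1g2 had values from -0.12 to -0.02. Over the 17 pump genes the median log2 difference was 0.11, and 2 were past the adjusted threshold (11.8%, against 6.12% of all genes), both positive. At an unadjusted p under 0.05 there were 7, all positive (10.1% of all genes were higher at that p).

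**Figure D2:**
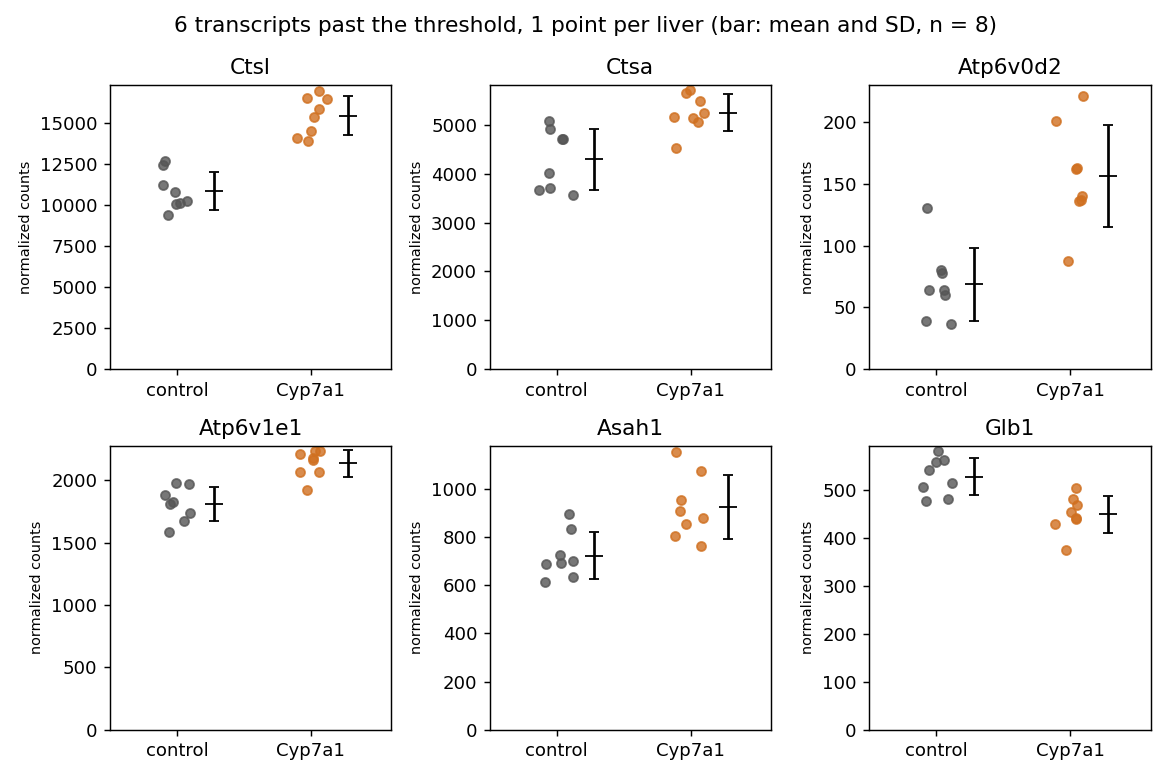
Normalized counts (y axis, starting at 0) of the 6 transcripts past the threshold, 1 point per liver, with the mean and SD of each group of 8 beside the points. The Ctsl groups do not overlap, and in each of the other 5 panels at least 1 liver lies within the range of the other group.

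The plot of 6 transcripts by liver sets the sizes apart: Ctsl reached 16972 normalized counts and Atp6v0d2 221.2. Cathepsins are the main lysosomal proteases, and of the 7 proteases listed here Ctsl and Ctsa rose and 0 fell, with a median log2 difference of 0.10. Those past the threshold are 28.6% of these proteases, against 6.12% of all genes. Ctsl encodes cathepsin L, a cysteine endopeptidase (ENSMUSG00000021477, chromosome 13, 64359337 to 64370890, minus strand). Controls ran from 9424 through 10531 to 12708 normalized counts, and Cyp7a1-labelled livers from 13911 through 15630 to 16972. The lowest Cyp7a1-labelled liver was above the highest control. The log2 difference was 0.51 ± 0.07 (SE), 1.43-fold, with a limma adjusted p of 0.000277. The gene shares 1742 exon bases with the antisense transcript Gm47123 and 395 with the pseudogene Gm49230, neither of which has a row, and the strand setting of the counting is not given.

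Ctsa encodes cathepsin A, a carboxypeptidase that also holds beta-galactosidase and neuraminidase together in a complex (ENSMUSG00000017760, chromosome 2, 164832873 to 164841032, plus strand). Its normalized counts ran from 3560 through 4368 to 5079 in controls and from 4529 through 5216 to 5719 in Cyp7a1-labelled livers, with 6 of 8 above every control. The log2 difference was 0.30 ± 0.08 (SE) with a limma adjusted p of 0.0325. Its exons share 495 bases on the opposite strand with Pltp, the phospholipid transfer protein gene, whose level rose from 1766 ± 581 to 3738 ± 1088 (SD, n = 8 each; log2 difference 1.09, limma adjusted p 0.00374). Reads from the shared bases cannot be told apart without the strand setting. The call was lost under quantile normalization (adjusted p 0.0516), under equal totals (0.0888), without Control 20 and Cyp7a1 24 together (0.0657), and without any 1 of Control 16, 20, 25 and 35 or Cyp7a1 2, 17, 19 and 28 (0.0501 to 0.0674).

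The other 5 proteases were not past the threshold. Ctsz, cathepsin Z, had 4856 ± 907 and 5623 ± 504 normalized counts (SD, n = 8 each) and a log2 difference of 0.23 with a limma adjusted p of 0.201. Ctsd, the aspartic protease cathepsin D, had a difference of 0.10, and it shares 808 exon bases with Gm49369. Ctsb, Tpp1 and Ctsh, cathepsin B, tripeptidyl peptidase 1 and cathepsin H, had differences of 0.01, 0.02 and -0.04. Ctsb shares 774 bases with Fdft1, squalene synthase, on the opposite strand, which rose by 0.54 (limma adjusted p 0.0162). Of 17 tested proteases and nucleases outside the 42 genes, 1 was past the threshold (5.88%, against 6.12% of all genes). Scpep1, a serine carboxypeptidase, rose from 1026 ± 169 to 1451 ± 224 (SD, n = 8 each; log2 difference 0.50, limma adjusted p 0.00884).

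Glycosidases trim sugars from glycoproteins, glycolipids, glycogen and glycosaminoglycans. Of 8 measured, Glb1 fell (12.5%, against 6.12% of all genes past the threshold), 0 rose and 7 were not past it. Their median log2 difference was 0.07. Glb1 encodes beta-galactosidase, a member of the complex with cathepsin A (ENSMUSG00000045594, chromosome 9, 114401076 to 114474898, plus strand). Controls ran from 476.4 through 528.1 to 582.0 normalized counts and Cyp7a1-labelled livers from 374.0 through 448.0 to 503.4. Of the 8 Cyp7a1-labelled livers 6 were below every control, and Cyp7a1 17 and Cyp7a1 24 were not. The log2 difference was -0.23 ± 0.06 (SE), with a limma adjusted p of 0.0302. The call was lost under equal totals (0.0686) and without any 1 of Control 12, 13, 25 and 38 or Cyp7a1 5 and 28 (0.0514 to 0.0582). Glb1 shares 165 exon bases with Tmppe on the same strand, which had a log2 difference of -0.12 (limma adjusted p 0.303).

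Neu1, neuraminidase 1 and the remaining member of that complex, had 1066 ± 109 and 1104 ± 98.2 normalized counts (SD, n = 8 each), a log2 difference of 0.05. So of the 3 genes of the complex 1 rose, 1 fell and 1 was not past the threshold. Hexa, the alpha subunit of hexosaminidase A, ran from 1411 through 1790 to 2221 in controls and from 1867 through 2114 to 2279 in the Cyp7a1 group. All 8 Cyp7a1-labelled livers were above the control mean, but only 2 of them were above every control. Its log2 difference was 0.23 ± 0.08 (SE), with a limma adjusted p of 0.104, or 0.0411 without Control 13. Gla, alpha-galactosidase A, had a difference of 0.20, Gusb, beta-glucuronidase, of 0.12, and Gaa, the glycogen-splitting acid alpha-glucosidase, of 0.08. Naglu, which acts on heparan sulfate, had 0.05 and Man2b1, an alpha-mannosidase, -0.09.

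Among lipid hydrolases and their cofactors Asah1 rose (25.0%, against 6.12% of all genes past the threshold) and the other 3 were not past it. Asah1 encodes acid ceramidase, which splits ceramide into sphingosine and a fatty acid (ENSMUSG00000031591, chromosome 8, 41340197 to 41374773, minus strand). It ran from 613.7 through 696.8 to 897.2 normalized counts in controls and from 761.8 through 894.0 to 1153 in Cyp7a1-labelled livers. All 8 Cyp7a1-labelled livers were above the control mean and 4 were above every control. The log2 difference was 0.35 ± 0.09 (SE), 1.28-fold, with a limma adjusted p of 0.0292. The highest liver of each group, Control 13 at 897.2 and Cyp7a1 24 at 1153, was also the one with the highest macrophage score. With the score as a covariate the log2 difference was 0.33 and the limma adjusted p 0.00879. The call was lost under equal totals (0.103), without Control 20 and Cyp7a1 24 together (0.0698), and without any 1 of Control 12, 16, 25 and 38 or Cyp7a1 2 and 28 (0.0511 to 0.0613), with log2 differences of 0.28 to 0.35 in these fits.

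Grn encodes progranulin, a secreted and lysosomal protein that is cut into granulins. It ran from 4949 through 6576 to 7693 in controls and from 5958 through 7209 to 9839 in the Cyp7a1 group, with Cyp7a1 17 highest. The groups overlapped widely, and the log2 difference of 0.18 ± 0.10 (SE) had a limma adjusted p of 0.31. Psap, the precursor of the saposins that present sphingolipids to their hydrolases, had 15480 ± 1926 and 15835 ± 786 normalized counts (SD, n = 8 each). Ppt1, which removes palmitate from proteins, had a log2 difference of -0.02.

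No membrane protein transcript passed the threshold. In limma 0 of 4 rose and 0 fell, 2 had an unadjusted p under 0.05 (against 20.5% of all genes), and the median log2 difference was -0.06. Mcoln1, the calcium channel TRPML1 and a known TFEB target, ran from 1002 through 1094 to 1269 in controls and from 940.0 through 1013 to 1063 in the Cyp7a1 group. No Cyp7a1-labelled liver reached the control mean, yet only 3 of 8 were below every control, and the log2 difference was -0.15 ± 0.05 (SE), limma adjusted p 0.0994. Lamp1, the most abundant glycoprotein of the lysosomal membrane, ran from 16791 through 18472 to 19902 in controls and from 16458 through 17122 to 17513 in the Cyp7a1 group. Again no Cyp7a1-labelled liver reached the control mean. Its log2 difference was -0.11 ± 0.04 (SE), limma adjusted p 0.169. Lamp1 shares 249 exon bases with Grtp1 on the opposite strand, which fell by 0.23 (limma adjusted p 0.0215). Lamp2, which takes part in autophagosome fusion, had a difference of 0.13 and Scarb2, the carrier of glucocerebrosidase, of -0.01.

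The transcripts of the regulators themselves were not past the threshold. Tfeb ran from 167.4 through 199.7 to 234.0 in controls and from 157.5 through 189.0 to 215.9 in the Cyp7a1 group, a log2 difference of -0.11 ± 0.08 (SE; 95% interval -0.27 to 0.05; limma adjusted p 0.44). Tfe3 ran from 564.9 through 597.6 to 660.0 and from 539.3 through 580.6 to 665.8, a difference of -0.04 ± 0.05 (SE; 95% interval -0.14 to 0.06; limma adjusted p 0.673). Both are known to be controlled mainly by phosphorylation and nuclear entry, which RNA levels do not show. Of 25 tested genes listed for their control, among them subunits of the kinase MTORC1 and Rag GTPases, 0 rose and 0 fell in limma. The list also holds Mitf and Tfec, which are relatives of Tfeb and Tfe3 rather than genes that control them. At an unadjusted p under 0.05 there were 4, Mitf among them, a share below the 20.5% of all genes. Those with the smallest p were Rragc, a Rag GTPase, with 0.17 (limma adjusted p 0.0693) and the kinase gene Mtor with 0.22 (0.103).

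**Figure D3:**
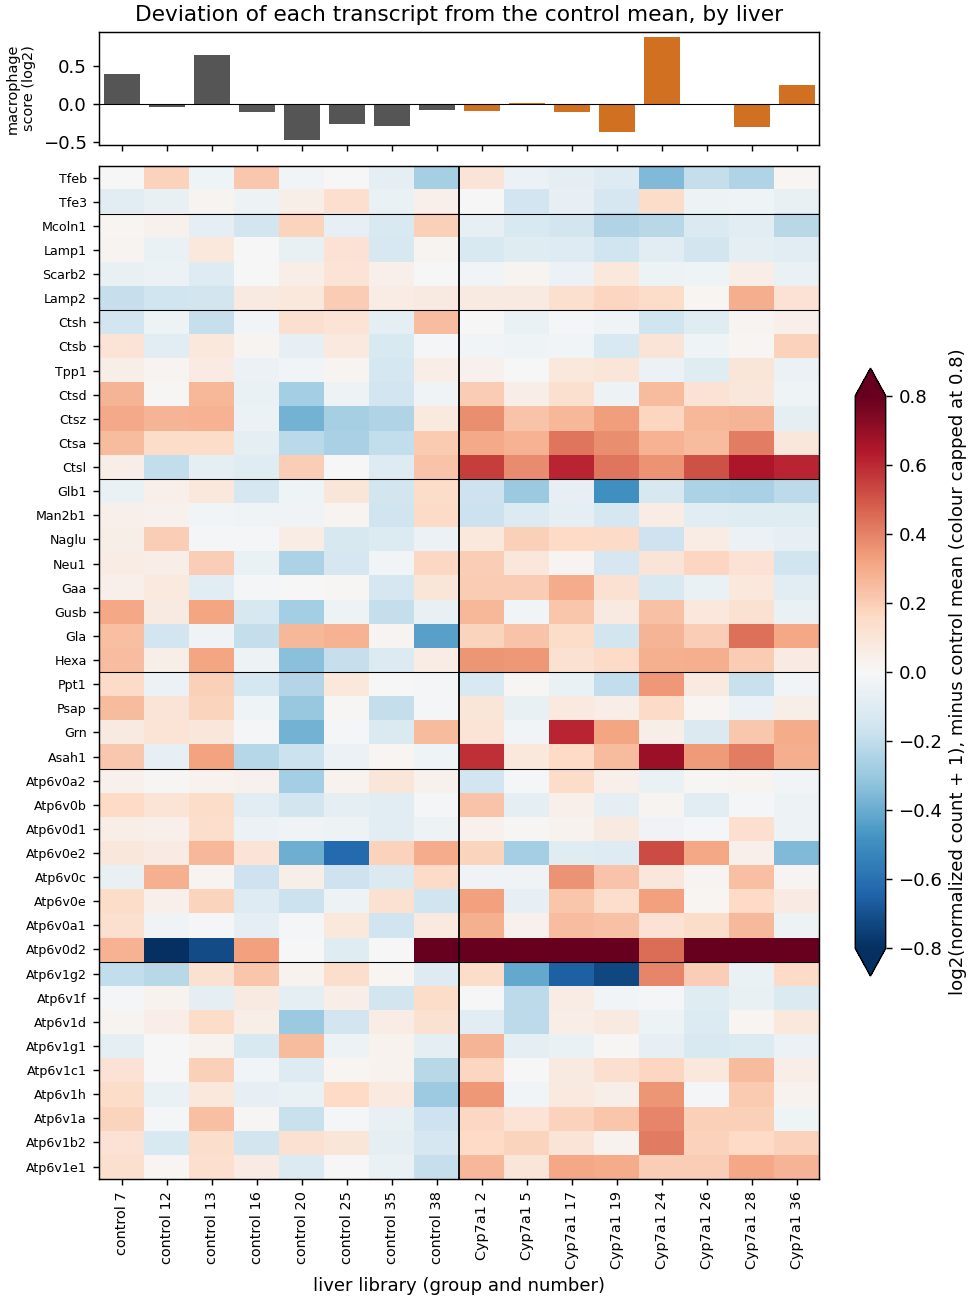
Deviation of each of the 42 transcripts (rows, grouped by role) from its control mean on the log2 scale in each of the 16 livers (columns), colour capped at 0.8, under bars of the macrophage marker score of each liver. The Ctsl row is red in all 8 Cyp7a1-labelled livers, and the Atp6v0d2 row reaches the upper cap in 7 of them and in Control 38.

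The map of deviations by liver shows that livers also differ within a group. The median deviation over the 42 genes ran from -0.08 (Control 35) to 0.09 (Control 13) in controls and from -0.02 (Cyp7a1 36) to 0.15 (Cyp7a1 2) in the Cyp7a1 group, so the groups overlapped. Over the pump genes alone it ran from -0.07 to 0.14 and from -0.02 to 0.17. The median coefficient of variation between livers was 9.78% in controls and 7.76% in Cyp7a1-labelled livers, against 12.1% and 11.3% over all genes. The genes were not matched for level in this comparison. Of the 42, 27 had a lower value in the Cyp7a1 group. Atp6v0d2 was the most variable in controls, at 43.1%, and Tpp1 the least, at 4.63%.

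The macrophage marker score, a mean over 23 Kupffer and recruited macrophage markers, was set against each transcript over the 16 livers after centring within each group. Among these markers Cd68 and Ctss are lysosomal and also in the further lysosomal lists, and Spp1 is also a cholangiocyte marker. With permutation p adjusted over the 12594 genes outside the score, 4 of the 42 transcripts passed 0.05 by Pearson correlation, 9.52% against 9.71% of those genes. By Spearman correlation 2 passed, 4.76% against 4.11%, so neither share past the threshold stood apart from the background. The median r of the 42 was 0.30 against -0.03, and 66.7% had a positive r against 47.8%, a shift that was not tested. By Pearson correlation alone Ctsd (r = 0.76, adjusted permutation p 0.0195) and Psap (r = 0.70, adjusted permutation p 0.0262) passed. Both measures were past the threshold for Ppt1 (r = 0.86, rho = 0.77, unadjusted permutation p 0.00013 and 0.00129, adjusted 0.00674 and 0.0391) and for Scarb2 (r = -0.75, rho = -0.80, unadjusted permutation p 0.00082 and 0.00058, adjusted 0.0188 and 0.0267). Without Control 13 and Cyp7a1 24, the livers with the scores farthest from the median, r was 0.70 for Ppt1 and -0.78 for Scarb2. For Asah1 r was 0.68 and rho 0.36 (unadjusted permutation p 0.00586 and 0.186, adjusted 0.0561 and 0.453), and r was 0.30 without these livers. For Ctsl r was -0.32 and rho -0.35 (unadjusted permutation p 0.247 and 0.197, adjusted 0.49 and 0.466), and r was -0.06 without them. For Atp6v0d2 r was -0.41 and rho -0.21 (unadjusted permutation p 0.128 and 0.454, adjusted 0.334 and 0.706), and r was 0.16 without them. With the score as a covariate in the limma fit the counts stayed at 5 higher and 1 lower.

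Levels of different genes were compared per kilobase of exon. In controls the highest of the 42 was Lamp1 with 6880 ± 381 normalized counts per kilobase (SD, n = 8), followed by Psap with 5640 ± 702, Ctsd with 4750 ± 634, Ctsz with 3370 ± 630 and Ctsb with 2710 ± 164. The neighbours Psap and Ctsd, and likewise Ctsz and Ctsb, differed by less than the sum of their SDs. Ctsl ranked 7 with 1680 ± 180. Among the pump subunits Atp6v0d1 led with 1060 ± 54.7, and Atp6v1e1 had 440.0 ± 33.5. The last 3 of the 42 were Atp6v0d2 with 25.3 ± 10.9, Atp6v1g2 with 20.5 ± 2.32 and Atp6v0e2 with 9.57 ± 2.03. The 6 genes past the threshold held ranks from 7 to 40, and none was among the 6 most abundant. Exon length counts every annotated exon, so a gene with long unused exons is placed too low.

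The rest of the lysosomal system gave few calls. Over 8 lists of further genes, 161 in all, 4 were higher and 2 were lower, 3.73% against the 6.12% of all genes, with a median log2 difference of 0.0007. At an unadjusted p under 0.05 there were 36, of which 27 were higher and 9 lower. Of all genes, 20.5% were at that p, 10.1% higher and 10.4% lower. Among 15 lipid hydrolases and sterol-release genes, Npc2, which hands cholesterol out of the lysosome, rose from 1390 ± 164 to 1696 ± 124 normalized counts (SD, n = 8 each; log2 difference 0.29, limma adjusted p 0.0151). Abca2, a lipid transporter of late endosomes, fell from 1280 ± 182 to 963.3 ± 95.9 (log2 difference -0.40, limma adjusted p 0.00712). Among 30 autophagy genes, 2 rose and 1 fell (6.12% of all genes were past the threshold). Of these 30, 7 had an unadjusted p under 0.05 (against 20.5% of all genes), 6 higher and 1 lower (against 10.1% and 10.4%). Map1lc3b, which coats autophagosome membranes, rose by 0.25 (limma adjusted p 0.0188) and Sqstm1, a receptor that delivers cargo to them, by 0.19 (0.0243). Uvrag, a partner of the lipid kinase that forms them, fell by 0.16 (0.0499).

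**Figure D4:**
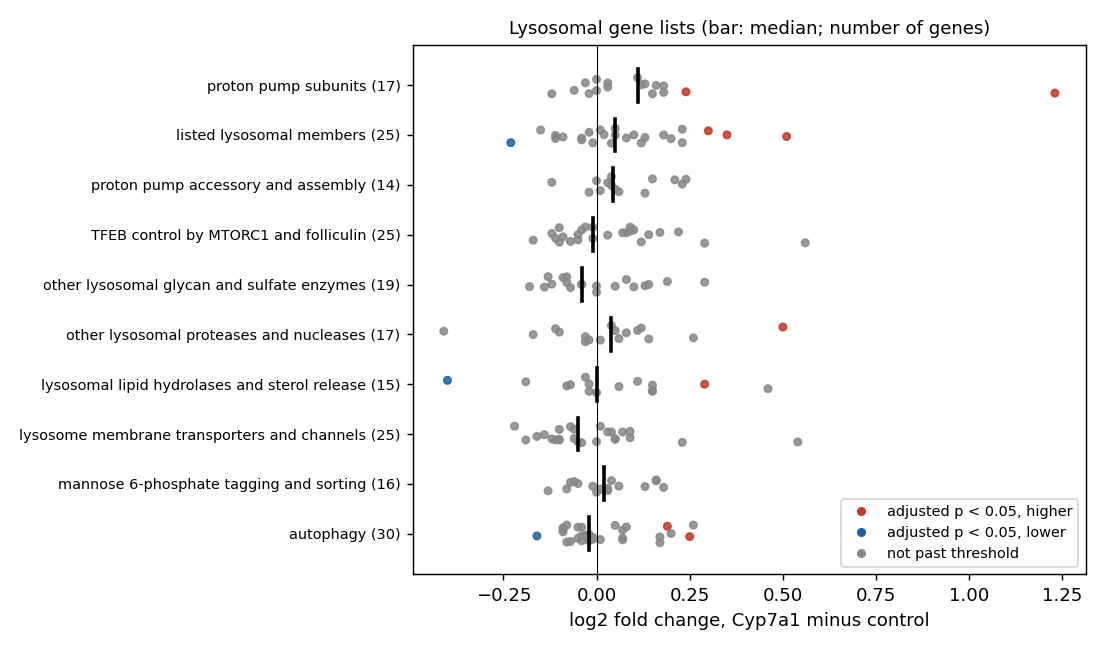
Log2 fold change (x axis, Cyp7a1-labelled minus control) of every tested gene of the pump, the listed lysosomal genes and 8 further lists, 1 point per gene, with a bar at each list's median. Medians lie close to 0 in all lists and are highest for the pump subunits, at 0.11.

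In the plot of gene lists, 5 lists besides those of the proteases, lipid genes and autophagy genes held 0 genes past the limma threshold. Among 14 accessory and assembly factors of the pump, 12 had positive values, 5 had an unadjusted p under 0.05 (against 20.5% of all genes), and those with the smallest p were Dmxl2, which helps V1 join V0 (0.24, limma adjusted p 0.0959), and Atp6ap2 (0.23, 0.1). Among 19 further glycan and sulfate enzymes, 4 with an unadjusted p under 0.05, these were the fucosidase gene Fuca1 (-0.14, 0.0526) and the sulfatase gene Galns (0.29, 0.181). Among 25 membrane transporters and channels, 3 of them so, they were the amino acid carrier gene Slc36a1 (-0.19, 0.119) and the cobalamin exporter gene Lmbrd1 (0.09, 0.229). Among 16 genes of mannose 6-phosphate tagging and sorting, also 3 of them so, they were the retromer gene Vps35 (0.18, 0.0962) and the clathrin gene Cltc (0.16, 0.119).

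Markers of other liver cells gave no call beside Tat: 0 of 11 sinusoidal endothelial, 0 of 12 stellate, 0 of 6 cholangiocyte, 0 of 3 lymphocyte and 0 of 1 neutrophil markers were past the limma threshold. At an unadjusted p under 0.05 there were 3, all endothelial, 1 higher and 2 lower (20.5% of all genes were at that p). The smallest adjusted p among these lists was 0.158, for the endothelial marker Eng, followed by Lyve1 with 0.2, and the others named by the same rule (Dcn, Rgs5, Krt7, Cd79b, Ighm and Csf3r) had 0.454 to 0.769. Summed endothelial markers ranged from 14978 to 18152 normalized counts in controls and from 13094 to 17632 in Cyp7a1-labelled livers. Summed stellate markers ranged from 7864 to 19287 and from 9819 to 18147, and summed cholangiocyte markers from 1478 to 4299 and from 1901 to 4577. The part of these cells in the results was not tested. The macrophage covariate was built from Kupffer and recruited macrophage markers only, of which Spp1 is also a cholangiocyte marker.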

How the data were processed

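The table the authors deposited holds normalized counts, a signal unit, in 16 libraries for 12618 genes. Per the labels' protocols, RNeasy kits gave RNA from flash-frozen liver, and KAPA RNA HyperPrep kits the mRNA libraries. The submitters' processing notes name the build mm10, STAR 2.7.11a, Trim Galore 0.6.10, DESeq2, featureCounts and R 3.6.3, with no role or order. Annotation release, strand setting and gene filter: not given in the sources used here. Values step by whole reads (within 0.05 reads for at least 99.929% of values), and this step was used for depth only. Ccne2 was left out for a text cell, and 19 symbols turned into dates were restored by gene ID.

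limma 3.58.1 (lmFit, eBayes with trend; R 4.3.3) was run two-sided on log2(value + 1). Adjusted p-values are Benjamini-Hochberg over all 12617 genes, and the threshold is 0.05. The log2 scale with a pseudocount of 1 understates changes of low genes. A minimum mean of 10 removed no gene (lowest mean 13.3), so all 42 genes were tested. The labels give no batch and the groups share no replicate number. The macrophage score is the mean of centred log2 values over 23 markers, related to the members by 100000 permutations of group-centred values, adjusted over the 12594 genes outside the score. Exon lengths and overlaps are from GENCODE M21, promoters from RefSeq. Steps were tested on simulated data.

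Values per liver are given for members past the threshold and, in each role with fewer than 2 of these, for the 2 with the smallest p. Of each further list up to 3 genes past the threshold, or the 2 with the smallest p, are named; 1 marker is not reported here. Overlap partners, Neu1, Atp6v0d1 and other members were named for their place in a complex or pair. The members and lists were chosen with earlier results of these data known.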

Additional observations from a re-analysis of the deposited data

Results flagged for a closer look

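Among the named members, 28 groups of 8 libraries were looked at for a library far from the others, and 1 was found. Atp6v1b2 had 1418 normalized counts in Cyp7a1 24, the next highest of its group had 1212 and the lowest 1088, so the gap to the next library was 0.593 of the group's range. Chance alone flags about 1 in 20 such groups. Cyp7a1 24 also had the highest macrophage marker score, 0.874, and the part of this in the Atp6v1b2 value was not tested.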

How the results depend on the processing

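The 5 higher and 1 lower members were set against a pseudocount of 8, a minimum mean of 50, no filter, quantile normalization, equal totals, array weights, the macrophage covariate, and leaving out libraries. Under equal totals 3 members were higher and 0 lower, and without Control 20 and Cyp7a1 24 together 3 were higher. Leaving out each library in turn gave 3 to 6 higher (3 without Control 16, Control 25, Cyp7a1 2 or Cyp7a1 28) and 0 to 1 lower (0 without Control 12, 13, 25 or 38 or Cyp7a1 5 or 28). The cause was not tested. Ctsl, Atp6v0d2 and Atp6v1e1 kept their calls in all 8 alternatives and all 16 fits without 1 library, with limma adjusted p of at most 0.000988, 0.0121 and 0.0487. No named member changed direction. The median log2 difference over all members ran from 0.031 to 0.053 under the 8 alternatives and from 0.037 to 0.082 without 1 library, and over the pump subunits from 0.089 to 0.115 and from 0.078 to 0.133. The Cyp7a1 transcript had 0.42 to 0.48 and 0.33 to 0.53. Over all genes, equal totals gave 263 higher and 372 lower, quantile normalization 380 and 426. The count tests edgeR and DESeq2 on recovered reads were not run, because the deposited values are normalized and a check that takes each library's smallest value as 1 read did not accept the libraries in which that value is more than 1 read. No paired analysis was possible because the groups share no replicate numbers. With 8 livers a group, differences the size of Atp6v1b2 or Hexa lie at the edge of what passes the threshold, and Atp6v0d2, Atp6v0e2 and Atp6v1g2 rest on low counts.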
